A study of Mus musculus with 13 samples.

Results

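The 10 genes Tox, Tox2, Tox3, Tox4, Hmgb1, Hmgb2, Hmgb3, Hbp1, Bbx and Cic encode HMG box proteins other than the SOX and TCF/LEF factors, and were described across sorted mouse thymocytes. They were chosen by name, as the genes of the Tox family together with further HMG box genes, and are 10 of the 19752 genes measured. All 10 were found. Each gene is represented by the probe set with the highest mean among those annotated with that gene alone. Of the members, 8 had a single such probe set, Hmgb2 had 4 and Hmgb3 had 2.

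Sorted thymocytes of mice 2 weeks old were profiled on Affymetrix arrays, 1 array per sample and 13 arrays in all. V2 cells are immature γδ thymocytes sorted as positive for TCRδ and the Vγ2 chain, high for HSA (CD24) and negative for CD4 and CD8, and DP cells are thymocytes positive for both CD4 and CD8. By label there were 4 V2 arrays from Sox4 conditional knockout (cKO) mice, 4 V2 arrays from wild-type (WT) mice, 3 DP cKO arrays and 2 DP WT arrays, with sex given as mixed. Of the V2 titles, 4 begin with V2imm and 4 with immV2. V2imm titles name no gene for the knockout, which was read as the same Sox4 cKO. No source used here gives the Cre line that deletes Sox4. Nothing in the labels ties replicates to separate mice, so p-values describe the spread among these arrays only, and part of it may be technical.

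The HMG box is a DNA-binding domain that lies in the minor groove and bends the helix. In SOX and TCF/LEF factors it reads a short sequence, whereas in the HMGB proteins, and probably in the Tox family, it recognises the shape of DNA more than its sequence. Tox is required for the development of CD4 T cells and of innate lymphoid cells, and Tox and Tox2 are known from exhausted T cells. HMGB proteins are abundant chromatin proteins, and Hmgb1 and Hmgb2 bend DNA for the RAG recombinase that assembles antigen receptor genes. Hbp1 and Cic are repressors, and Cic is released from its targets by RAS and MAPK signalling.

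Values are log2 of the deposited RMA intensities, and differences are on the same log2 scale. Sox4, the targeted gene, had log2 intensities of 8.07, 9.60, 8.11 and 8.23 in the V2 arrays labelled cKO, against 8.71, 8.64 and 9.68 in V2 WT. In DP cells it had 8.74 and 8.68 in cKO, against 9.37 and 8.55 in WT. The array labelled V2 cKO replicate 5 (V2imm) was the only V2 cKO array above any V2 WT array. The cKO minus WT difference was -0.51 (SE 0.38, limma adjusted p = 0.999) in V2 cells and -0.25 (SE 0.49, adjusted p = 1) in DP cells. Without that array the V2 difference was -1.06 (SE 0.24, adjusted p = 0.1). The array was singled out by its Sox4 value, so a larger difference without it follows from the choice and is no evidence of the knockout. No source used here places the probes relative to the deleted part of Sox4, so these values may check nothing about the labels.

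Markers of the sorted populations, 6 for V2 and 7 for DP cells, went against the label in 2 arrays. The array labelled DP cKO replicate 5 had Cd4 at 7.47 and Sox13, a γδ transcription factor gene, at 11.49. In the array labelled V2 WT replicate 5 (immV2), Cd4 was at 12.65 and Sox13 at 7.73. In the other 11 arrays Cd4 lay between 6.71 and 7.36 in V2 cells, against 12.36 to 12.62 in DP cells. These 2 arrays are shown apart, and the results below come from the 11 others: 4 V2 cKO, 3 V2 WT, 2 DP cKO and 2 DP WT arrays. Array medians ran from 122.2 to 137.2 intensity units, and precision is set by the small number of arrays. The spread of values was narrowest in V2 cKO replicate 4 (V2imm). Its upper quartile was 332.7 intensity units, beside 357.3 to 426.2 in the others, and its lower quartile, log2 6.09, was the highest. The summed intensity of 9 macrophage and dendritic cell markers was 1325 to 5938 in V2imm arrays and 717.4 to 1110 in immV2 arrays, against 772.1 to 882.8 in DP arrays. By genotype, this sum was 766.8 to 5938 in V2 cKO arrays and 717.4 to 2953 in V2 WT arrays. Its part in the results below was not tested.

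**Figure D1:**
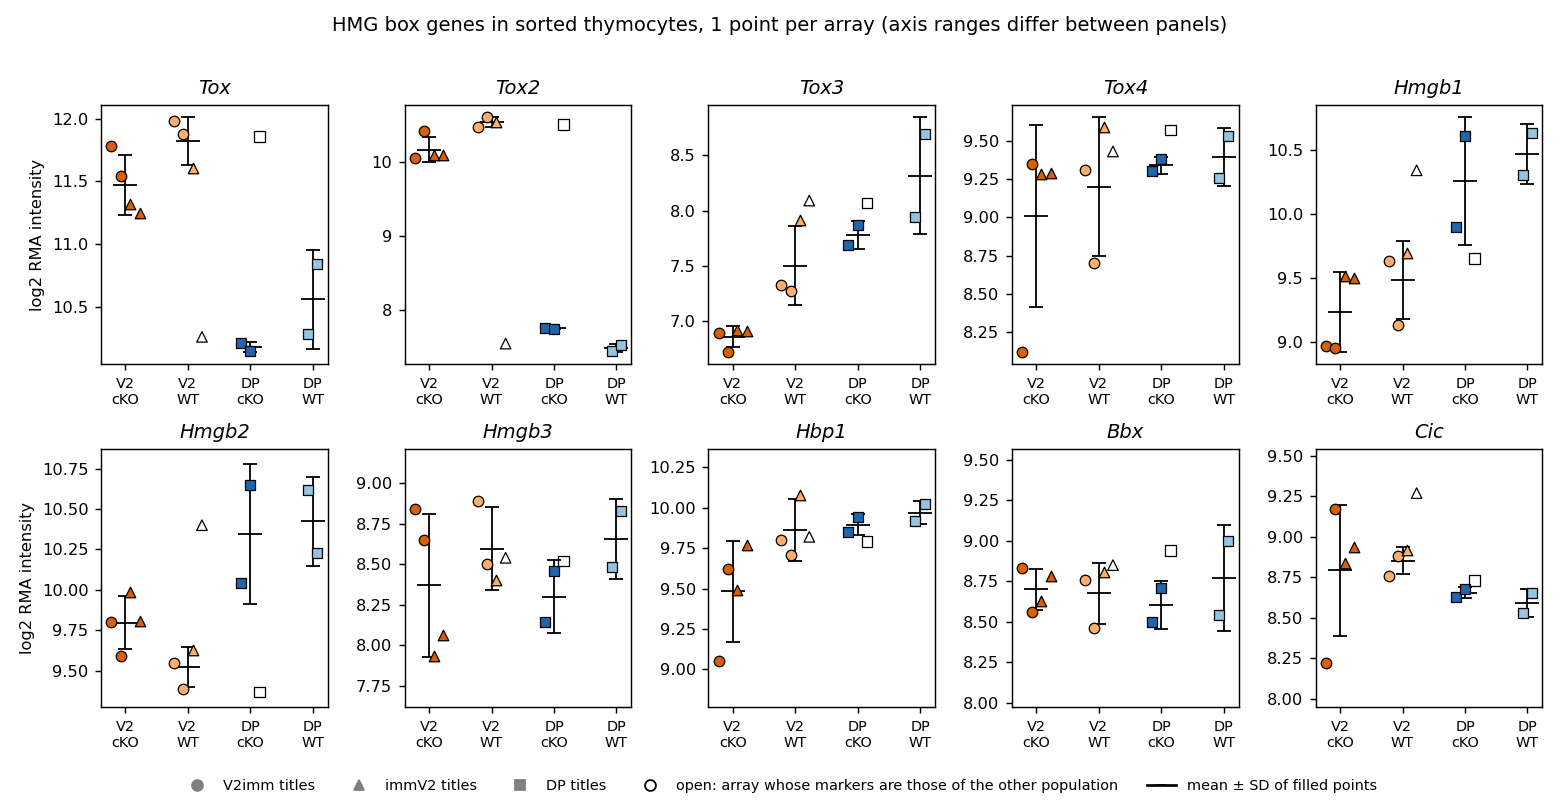
Log2 RMA intensity of the 10 genes, 1 panel per gene and 1 point per array, in V2 cKO, V2 WT, DP cKO and DP WT, with bars for the mean and SD of the filled points. Circles are V2imm arrays, triangles immV2 arrays and squares DP arrays, and open points are the 2 arrays with the markers of the other population. Tox and Tox2 were higher in all V2 arrays than in all DP arrays, and Hmgb1 and Hmgb2 were lower.

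The first comparison asks how these genes differ between immature V2 cells and DP cells. In both genotypes Tox and Tox2 were higher in V2 cells. Hmgb1, Hmgb2 and Tox3 had lower values in V2 cells, and for each of the 3 the difference passed the test in 1 genotype. Tox4, Hmgb3, Hbp1, Bbx and Cic did not pass it in either. With limma and an adjusted p threshold of 0.05, 4 of the 10 members were called between V2 cKO and DP cKO cells, 2 higher and 2 lower, where 5.45% of all genes were called (3.5% higher and 1.94% lower). Between V2 WT and DP WT cells 3 of 10 were called, 2 higher and 1 lower, where 4.87% of all genes were called (3.2% higher and 1.67% lower). At an unadjusted p under 0.05 there were 5 members in each genotype, beside 14.3% of all genes in cKO and 14.0% in WT. Over both genotypes, all 7 V2 arrays were above all 4 DP arrays for Tox and Tox2, as for 4.79% of all genes, and below them for Hmgb1 and Hmgb2, as for 3.49%. Within cKO the arrays did not overlap for 2 members that were higher, beside 9.8% of all genes, and 4 that were lower, beside 11.3%. Within WT they did not overlap for 3 that were higher, beside 14.4%, and 3 that were lower, beside 12.8%. With the 13 arrays as labelled 0 members were called, beside 0.0354% of all genes in cKO and 0.0557% in WT. The median difference of the 10 members was -0.13 in cKO cells and -0.09 in WT cells, beside -0.01 and -0.02 over all genes. In bulk samples of sorted cells, fewer cells expressing a gene and less RNA per cell cannot be told apart.

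Tox lies on chromosome 4 (chr4:6686353-6991557, GRCm38.p6). Its log2 intensity was 11.78, 11.54, 11.32 and 11.25 in V2 cKO arrays and 11.98, 11.88 and 11.61 in V2 WT arrays, against 10.21 and 10.15 in DP cKO arrays and 10.28 and 10.84 in DP WT arrays. Every V2 array was above every DP array, while V2 cKO and V2 WT arrays overlapped. V2 cKO cells exceeded DP cKO cells by 1.29 (SE 0.19, 2.45-fold, limma adjusted p = 0.001), and V2 WT cells exceeded DP WT cells by 1.20 (SE 0.20, 2.30-fold, adjusted p = 0.00282). DP WT replicate 5 stood above the other 3 DP arrays, and without it the WT difference was 1.48. With V2 cells from the V2imm arrays alone the differences were 1.48 in cKO and 1.37 in WT. With the immV2 arrays alone, which leaves 1 V2 WT array, they were 1.11 (adjusted p = 0.0217) in cKO and 1.04 (adjusted p = 0.0762) in WT. With the 13 arrays as labelled, the differences were 0.73 (adjusted p = 0.67) in cKO cells and 0.87 (adjusted p = 0.658) in WT cells.

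Tox2 differed most between the populations among the 10 members. Its log2 intensity was 10.06, 10.42, 10.10 and 10.09 in V2 cKO arrays and 10.47, 10.61 and 10.54 in V2 WT arrays, against 7.75 and 7.74 in DP cKO arrays and 7.44 and 7.52 in DP WT arrays. The 4 groups did not overlap with each other. V2 cKO cells exceeded DP cKO cells by 2.42 (SE 0.17, 5.34-fold, limma adjusted p = 1.93e-06), and V2 WT cells exceeded DP WT cells by 3.05 (SE 0.18, 8.26-fold, adjusted p = 4.3e-07). The differences were 2.49 and 3.06 with the V2imm arrays alone and 2.35 and 3.06 with the immV2 arrays alone. Both calls held in each of 26 alternative fits, the exception being the 13 arrays as labelled, in which the differences were 1.5 (adjusted p = 0.61) in cKO cells and 2.31 (adjusted p = 0.484) in WT cells. The DP levels of Tox2 lie above the lower quartile of every array, which ran from 5.72 to 6.09, but the files hold no detection calls, so the size of the fold rests on a level whose distance from background is not known.

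**Figure D2:**
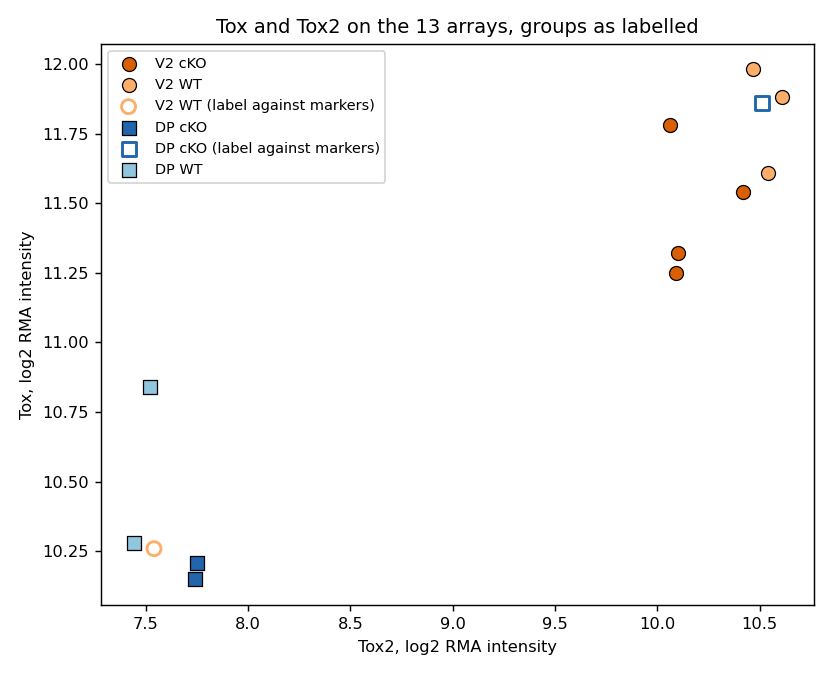
Tox (vertical axis) against Tox2 (horizontal axis) in log2 RMA intensity on the 13 arrays, circles for arrays labelled V2 and squares for arrays labelled DP, with open symbols for the 2 arrays whose markers go against the label. The V2 arrays lie at 10.06 to 10.61 for Tox2 and the DP arrays at 7.44 to 7.75, and each open symbol lies with the other population.

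Tox2 (chr2:163203058-163324172) has 5 annotated start sites in RefSeq (GRCm38.p6) with a promoter window of 250 bases before the start. Tox2 was the member that differed most, and the stretch before start 4, which lies within the gene, is shown here. It runs from 5′ to 3′ on the plus strand (chr2:163225203-163225452). Capitals mark ATCAAAG, a TCF/LEF motif, and CCAAT, the CCAAT box, on either strand. Only the windows of starts 4 and 5 hold ATCAAAG, and those of starts 1, 2 and 3 do not. The stretch shown therefore does not represent all 5 starts.

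Tox2 start 4: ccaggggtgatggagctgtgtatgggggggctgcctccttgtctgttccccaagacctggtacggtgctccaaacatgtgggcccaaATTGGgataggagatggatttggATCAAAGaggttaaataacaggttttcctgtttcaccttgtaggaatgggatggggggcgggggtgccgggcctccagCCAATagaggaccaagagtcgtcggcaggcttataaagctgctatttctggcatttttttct

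Windows of 300 bases, 250 before and 50 after each start, were searched on both strands for short motifs. These were AACAATG for SOX factors, the motif AACAAAG shared by SOX and TCF/LEF factors, the TCF/LEF motif ATCAAAG, the Cic motifs TGAATGAA and TGAATGGA, and the CCAAT box. In order, 3.78%, 5.85%, 3.73%, 1.3%, 1.21% and 37.4% of all 32851 windows hold one. The TCF/LEF motif was found in 2 Tox2 windows whose starts are adjacent. The first Cic motif was found before Hmgb3, and no other match but CCAAT boxes was found in the members' windows. RefSeq windows were matched for 8 of the 10 members, 14 windows in all. Tox and Bbx had no matched window and were not searched. A match describes these letters and is not a measured binding site.

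Tox3 had lower values in V2 cells, in contrast to Tox and Tox2. Tox3 (chr8:90247110-90349029) is a family member best known from breast epithelium and neurons. In V2 cKO arrays its log2 intensity was 6.89, 6.72, 6.92 and 6.91 and in V2 WT arrays 7.33, 7.27 and 7.91, against 7.69 and 7.87 in DP cKO arrays and 7.94 and 8.69 in DP WT arrays. V2 cKO arrays were the lowest and DP WT arrays the highest, and V2 WT and DP cKO arrays overlapped. The difference was -0.92 (SE 0.20, 1.89-fold, limma adjusted p = 0.0146) between V2 cKO and DP cKO cells and -0.76 (SE 0.21, adjusted p = 0.0649) between V2 WT and DP WT cells. The cKO call was lost with V2imm arrays alone for V2 (-0.98, adjusted p = 0.0552) and with immV2 arrays alone (-0.87, adjusted p = 0.0856). In WT the value was -1.01 with V2imm arrays alone, which passed the threshold (adjusted p = 0.0479), and -0.4 with immV2 arrays alone (adjusted p = 0.518). It also passed with quantile normalisation, among genes above the lower quartile and with array weights (adjusted p of 0.0152 to 0.0475). The cKO call was also lost without DP cKO replicate 3 (-1.01, adjusted p = 0.0889), DP cKO replicate 4 (-0.83, adjusted p = 0.183) or V2 cKO replicate 3 of the immV2 titles (-0.88, adjusted p = 0.0513). The WT difference was -0.38 without DP WT replicate 5, and passed the threshold without DP WT replicate 3 (-1.13, adjusted p = 0.0153), V2imm cKO replicate 4 (-0.74, adjusted p = 0.0388) or V2imm cKO replicate 5 (-0.76, adjusted p = 0.0482). As labelled, the 13 arrays gave -1.02 (adjusted p = 0.104) in cKO cells and -0.66 (adjusted p = 0.444) in WT cells. The V2 levels are above the lower quartile of every array but low, and without detection calls they are not shown to lie above background.

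Tox4, a subunit of a chromatin-bound PP1 phosphatase complex, was not called between the populations. Its log2 intensity was 8.12, 9.35, 9.28 and 9.29 in V2 cKO arrays and 9.31, 8.70 and 9.59 in V2 WT arrays, against 9.30 and 9.38 in DP cKO arrays and 9.26 and 9.53 in DP WT arrays. All 4 groups overlapped, and V2 cKO replicate 4 (V2imm) was the lowest array. The V2 minus DP difference had a 95% confidence interval of -0.95 to 0.29 in cKO cells and -0.76 to 0.56 in WT cells.

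**Figure D3:**
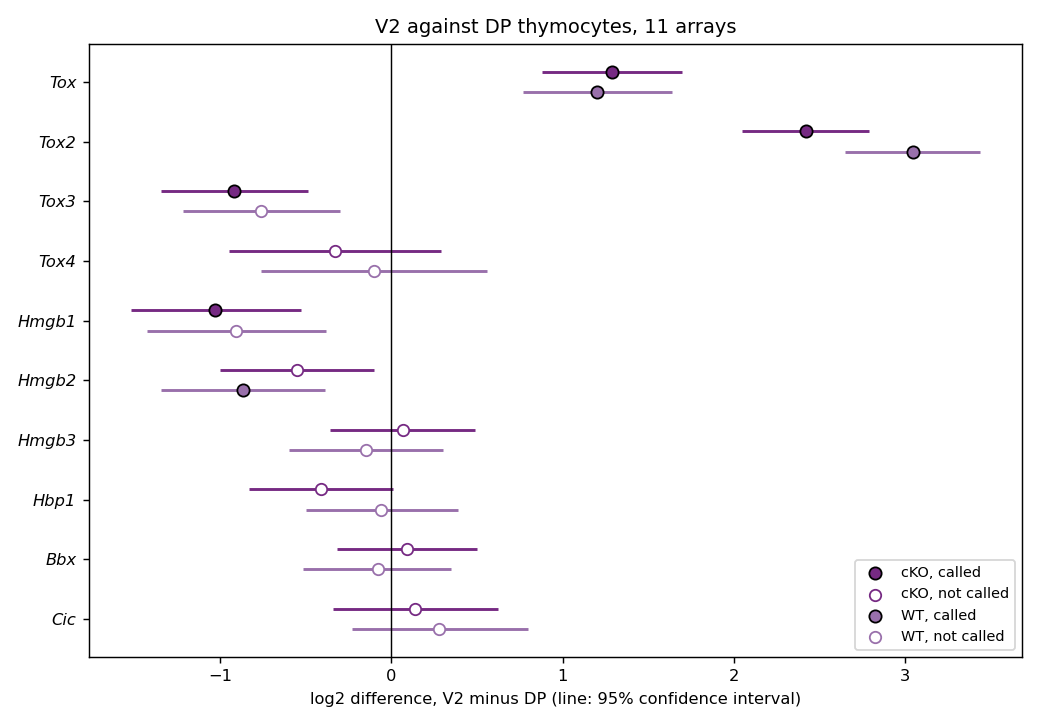
Log2 difference between V2 and DP cells for the 10 genes, with lines for the 95% confidence interval, cKO above WT for each gene. Filled points passed an adjusted p of 0.05 with limma: Tox (1.29 and 1.20) and Tox2 (2.42 and 3.05) in both genotypes, Tox3 (-0.92) and Hmgb1 (-1.03) in cKO cells, and Hmgb2 (-0.87) in WT cells.

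Hmgb1 and Hmgb2, the HMGB proteins that assist RAG in cutting DNA, were both lower in all V2 arrays than in all DP arrays. Hmgb1 (chr5:149046702-149053057) had log2 intensities of 8.97, 8.95, 9.51 and 9.50 in V2 cKO and 9.63, 9.13 and 9.69 in V2 WT, against 9.90 and 10.61 in DP cKO and 10.30 and 10.63 in DP WT. V2 cKO and V2 WT arrays overlapped, as did DP cKO and DP WT arrays. The difference was -1.03 (SE 0.23, 2.04-fold, limma adjusted p = 0.0167) between V2 cKO and DP cKO cells and -0.91 (SE 0.24, adjusted p = 0.0512) between V2 WT and DP WT cells. Without DP cKO replicate 4 the cKO difference was -0.67 (adjusted p = 0.346). The cKO call was also lost without the title term (-1.03, adjusted p = 0.0663), with only the V2 cKO and DP cKO groups in the fit (-1.03, adjusted p = 0.078) and with a covariate for arrays high in Xist (-0.97, adjusted p = 0.0921). The WT difference passed the threshold without either DP cKO array or either V2imm cKO array, with adjusted p values of 0.0262 to 0.0376, and under 8 other settings, with 0.00994 to 0.0495. A further 32 probe sets name Hmgb1 together with other genes, and all 32 had lower means in V2 cells, with a median difference of -0.45 in cKO and -0.39 in WT. They ran close together, from -0.55 to -0.29 in cKO and from -0.48 to -0.32 in WT. As all of them name Hmgb1, they are not 32 separate measurements. With V2imm arrays alone for V2 the differences of the Hmgb1 probe set were -1.3 (adjusted p = 0.0361) and -1.09, and with immV2 arrays alone -0.75 (adjusted p = 0.159) and -0.78. As labelled, the 13 arrays gave -0.82 (adjusted p = 0.378) in cKO cells and -0.77 (adjusted p = 0.491) in WT cells.

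Hmgb2 (chr8:57511843-57515999) is expressed with cell division in many tissues. Its log2 intensity was 9.80, 9.59, 9.99 and 9.81 in V2 cKO and 9.55, 9.39 and 9.63 in V2 WT, against 10.04 and 10.65 in DP cKO and 10.62 and 10.23 in DP WT. The highest V2 array, a V2 cKO array, lay just under the lowest DP array. V2 WT cells were lower than DP WT cells, with a difference of -0.87 (SE 0.22, 1.83-fold, limma adjusted p = 0.0402), and the difference between V2 cKO and DP cKO cells was -0.55 (SE 0.21, adjusted p = 0.209). The 4 Hmgb2 probe sets ran close together, from -0.55 to -0.50 in cKO and from -0.93 to -0.90 in WT. The WT call was lost when any V2 WT array, any DP WT array or any immV2 cKO array was left out, with differences of -1.07 to -0.67 and adjusted p values of 0.0503 to 0.353. Without DP cKO replicate 4 the cKO difference was -0.24. With V2imm arrays alone the differences were -0.65 in cKO and -0.96 in WT, and with immV2 arrays alone -0.44 and -0.8, and the WT call was lost in both (adjusted p = 0.113 and 0.225). It was also lost without the title term, with arrays centred on their median and with the probe set of largest range, at adjusted p values of 0.0536 to 0.0592. As labelled, the 13 arrays gave -0.22 (adjusted p = 0.889) in cKO cells and -0.68 (adjusted p = 0.584) in WT cells.

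Of 19 measured proliferation genes, 0 passed the test between V2 and DP cells in either genotype, with a median difference of -0.26 in cKO and -0.31 in WT. Their mean log2 intensity per array was 10.08 to 10.56 in V2 cKO and 10.21 to 10.44 in V2 WT, against 10.12 and 10.79 in DP cKO and 10.41 and 10.67 in DP WT. Among DP arrays, cKO replicate 4 had both the highest proliferation mean and the highest Hmgb2 value, 10.65. Within DP WT the order was reversed. Replicate 3 had Hmgb2 at 10.62 with a proliferation mean of 10.41, and replicate 5 had 10.23 with 10.67. The highest proliferation mean among V2 arrays, 10.56 in V2 cKO replicate 5 (V2imm), went with an Hmgb2 value of 9.59. The part of proliferation in the Hmgb2 difference was not tested.

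The promoters of Hmgb1 and Hmgb2 are shown because both genes were lower in V2 cells and both hold several CCAAT boxes, given in capitals, in the 250 bases before an annotated start (RefSeq, GRCm38.p6). The Hmgb1 stretch lies on the minus strand (chr5:149053058-149053307) and the Hmgb2 stretch on the plus strand (chr8:57511593-57511842).

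Hmgb1 start 1: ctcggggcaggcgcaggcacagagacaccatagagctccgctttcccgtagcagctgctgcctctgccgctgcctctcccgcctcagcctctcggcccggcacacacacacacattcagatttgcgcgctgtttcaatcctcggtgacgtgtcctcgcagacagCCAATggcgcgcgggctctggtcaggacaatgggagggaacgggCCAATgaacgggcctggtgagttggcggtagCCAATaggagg

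Hmgb2 start 1: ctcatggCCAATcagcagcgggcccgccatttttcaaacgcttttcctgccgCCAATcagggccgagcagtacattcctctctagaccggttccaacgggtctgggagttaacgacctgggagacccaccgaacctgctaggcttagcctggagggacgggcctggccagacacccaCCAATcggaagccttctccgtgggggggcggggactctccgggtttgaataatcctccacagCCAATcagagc

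The Hmgb1 stretch holds 3 CCAAT boxes and the Hmgb2 stretch 4. Hmgb1 has a second window, not shown, which holds 0, and the one shown was chosen for its boxes. At least 3 occur in 3.37% and at least 4 in 1.06% of all windows. Such boxes are not particular to the members that were lower: the third Tox2 window also holds 4, and the Hmgb3 and Hbp1 windows and 1 of the Cic windows, of members that were not called, hold 3. The windows of Tox3, which was lower in V2 cKO cells, and of Tox4 hold 0.

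Hmgb3, the X-linked HMGB gene of haematopoietic progenitors, was not called between V2 and DP cells. It ranged from 7.93 to 8.84 in V2 cKO and from 8.4 to 8.89 in V2 WT, against 8.14 and 8.46 in DP cKO and 8.48 and 8.83 in DP WT. Within V2 cKO, the V2imm arrays (8.84 and 8.65) were above the immV2 arrays (7.93 and 8.06). Its differences were 0.07 (SE 0.20) in cKO cells and -0.15 (SE 0.21) in WT cells. By group means alone, the second Hmgb3 probe set gave 0.31 in cKO and -0.07 in WT, beside 0.07 and -0.05 for the one used.

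The repressors and Bbx, an HMG box gene of less studied function, did not differ between the populations past the threshold. Hbp1, which represses cell cycle genes, ranged from 9.05 to 9.77 in V2 cKO and from 9.71 to 10.08 in V2 wild type, against 9.85 and 9.94 in DP cKO and 9.92 and 10.02 in DP wild type. All V2 cKO arrays were below both DP cKO arrays, with a difference of -0.41 (SE 0.19, limma adjusted p = 0.367). Bbx varied little, from 8.46 to 9.0 over the 11 arrays, and its differences were 0.09 (SE 0.19) in cKO and -0.08 (SE 0.20) in WT cells. Cic had 8.22, 9.17, 8.84 and 8.94 in V2 cKO and 8.76, 8.88 and 8.92 in V2 WT, against 8.63 and 8.68 in DP cKO and 8.53 and 8.65 in DP WT. All V2 WT arrays were above both DP WT arrays for Cic, by 0.28 (SE 0.24, adjusted p = 0.775), and the cKO groups overlapped.

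**Figure D4:**
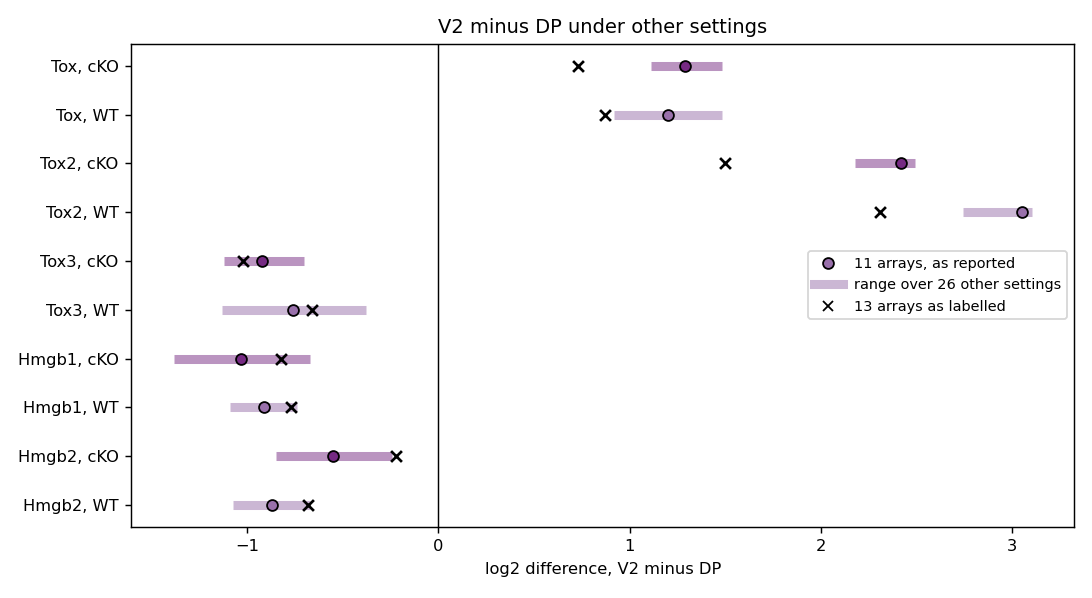
V2 minus DP log2 difference for Tox, Tox2, Tox3, Hmgb1 and Hmgb2 in cKO and in WT cells: the reported value (circle), the range over 26 other settings (bar) and the value with the 13 arrays as labelled (cross). Tox and Tox2 lay above 0 and Tox3, Hmgb1 and Hmgb2 below 0 in all of them.

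The second comparison is that of the series, Sox4 cKO against WT, within V2 cells. No member passed the threshold: 0 of 10 were called with limma, as were 0.0% of all genes. At an unadjusted p under 0.05 there were 3 members (Tox2, Tox3 and Hbp1), beside 3.83% of all genes. For Tox2 and Tox3 all 4 V2 cKO arrays were below all 3 V2 WT arrays, an order found in 1.76% of all genes. No member had all cKO arrays above all WT arrays, as 1.69% of all genes did. The median difference of the 10 members was -0.29, against 0.01 over all genes. Of the members 8 were below 0, beside 47.9% of all genes. Among the lists described further on, 9 of 12 HMG box genes of chromatin and mitochondria were below 0, and 9 of 19 SOX genes.

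Tox3 had the smallest p among the members in V2 cells. Its values, 6.72 to 6.92 in V2 cKO against 7.27 to 7.91 in V2 WT, differed by -0.70 (SE 0.18, 95% confidence interval -1.08 to -0.31, limma adjusted p = 0.434). The difference was -0.50 within the V2imm arrays and -1.0 within the immV2 arrays, which hold a single WT array. Without the array labelled V2 cKO replicate 5 (V2imm), in which Sox4 was not low, it was -0.70 (adjusted p = 0.159).

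Tox2 averaged 10.17 ± 0.17 (SD, n = 4) in V2 cKO and 10.54 ± 0.07 (SD, n = 3) in V2 WT. The difference was -0.36 (SE 0.15, 95% confidence interval -0.69 to -0.03, adjusted p = 0.999). It was -0.30 within V2imm and -0.45 within immV2 arrays, and -0.46 (adjusted p = 0.18) without the array labelled V2 cKO replicate 5 (V2imm), the V2 cKO array highest in Tox2. With the 13 arrays as labelled it was 0.38 (SE 0.66), and V2 WT replicate 5 (immV2), among the arrays shown apart, read 7.54. The summed intensity of the 6 V2 markers was also lower in V2 cKO, 5308 to 11460, than in V2 WT, 12620 to 14630, and the part of this in the Tox2 values was not tested.

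Tox differed by -0.29 (SE 0.17, adjusted p = 0.999) and Hbp1 by -0.43 (SE 0.17, adjusted p = 0.999) between V2 cKO and V2 WT, with overlapping arrays. With the 13 arrays the Tox value was 0.04. Hbp1 was lowest in V2 cKO replicate 4 (V2imm), at 9.05, and differed by -0.29 without it. Hmgb1 and Hmgb2 differed in opposite directions, by -0.33 (SE 0.20) and 0.25 (SE 0.19), without passing the test. Tox4, Hmgb3, Bbx and Cic differed by -0.29 (SE 0.26), -0.14 (SE 0.18), 0.01 (SE 0.17) and -0.09 (SE 0.20).

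**Figure D5:**
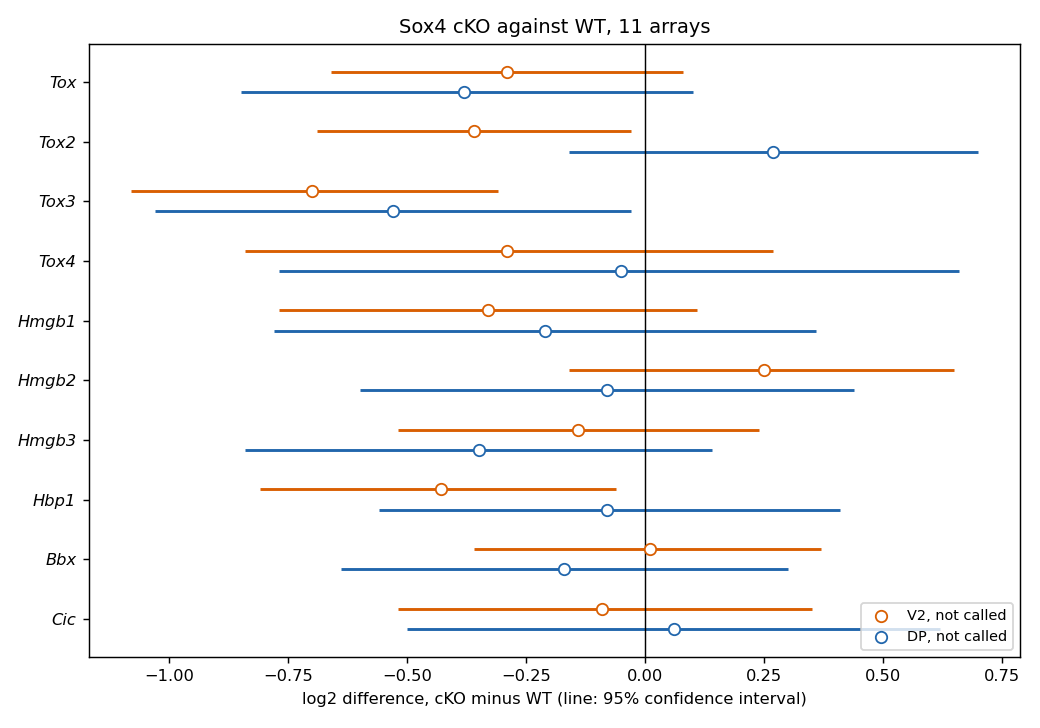
Log2 difference between Sox4 cKO and WT for the 10 genes in V2 cells (upper of each pair) and DP cells (lower), with lines for the 95% confidence interval. Open points did not pass an adjusted p of 0.05, and that is every point. The intervals of Tox3 lie below 0 in both populations, and those of Tox2 and Hbp1 in V2 cells.

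Within DP cells, 0 of 10 members were called between cKO and WT, where 0.0253% of all genes were called. With 2 arrays in each group the arrays did not overlap for 4 members: Tox2 was higher in cKO, as were 15.8% of all genes, and Tox, Tox3 and Hmgb3 were lower, as were 14.0% of all genes. Tox3 had 7.69 and 7.87 in DP cKO, against 7.94 and 8.69 in DP WT, a difference of -0.53 (SE 0.23, limma adjusted p = 1). That value was -0.16 without DP WT replicate 5 and -0.91 without DP WT replicate 3. Tox2 differed by 0.27 (SE 0.20) and Hmgb3 by -0.35 (SE 0.23). Tox differed by -0.38 (SE 0.22), by -0.1 without DP WT replicate 5, by -0.66 without DP WT replicate 3 and, with the 13 arrays as labelled, by 0.18. The median of the 10 members was -0.12, with all genes at 0.0. At an unadjusted p under 0.05 there was 1 member, Tox3, beside 2.71% of all genes.

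The cKO minus WT difference itself was compared between V2 and DP cells with an interaction term. None of the 10 members was called, as 0.0% of all genes were, and 1 member, Tox2, had an unadjusted p under 0.05, beside 1.88% of all genes. For Tox2 the V2 difference minus the DP difference was -0.63 (SE 0.25, 95% confidence interval -1.17 to -0.09, limma adjusted p = 1). For Tox3 it was -0.16 (SE 0.29) and for Tox 0.09 (SE 0.28). For no member was the knockout difference shown to depend on the population.

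Lists of related genes, made with earlier results of these data known, were set beside the members. Of all genes, 3.5% were called higher and 1.94% lower in V2 cKO than in DP cKO. Between V2 WT and DP WT the shares were 3.2% and 1.67%. Of 9 genes of the NFAT, calcineurin and NR4A pathway, which acts upstream of Tox in stimulated T cells, 3 were higher and 1 was lower in V2 cKO than in DP cKO, and 5 were higher and 0 lower in V2 WT than in DP WT. The list medians were 0.68 and 0.93. Nr4a3, an orphan nuclear receptor gene, was higher by 1.20 (SE 0.16) in cKO and 1.10 (SE 0.17) in WT, and Ppp3ca, a calcineurin subunit gene, by 1.06 (SE 0.18) and 0.93 (SE 0.20). Nr4a2, of the same receptor family as Nr4a3, was higher by 0.68 (SE 0.17) and 0.94 (SE 0.19). Nfatc3 was lower in V2 cKO cells (-1.06, SE 0.21, limma adjusted p = 0.00867), whereas Nfatc2 was higher in V2 WT cells (0.90, SE 0.20, adjusted p = 0.0173).

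Next came 8 genes, lineage factors and a receptor gene, that depend on or act with Tox in CD4 T cells and innate lymphoid cells. In each genotype 5 were higher in V2 cells and 0 were lower, with medians of 1.34 in cKO and 1.21 in WT. Il7r, the IL-7 receptor gene, was higher by 4.14 (SE 0.22) in cKO and 3.97 (SE 0.23) in WT, and Gata3 by 1.64 (SE 0.21) and 1.76 (SE 0.23). Runx3 was higher by 1.93 (SE 0.24) and 3.04 (SE 0.26), and Id2, an inhibitor of E proteins, by 3.21 (SE 0.25) and 1.42 (SE 0.27). For Id2 the V2 minus DP difference between the knockout effects was 1.79 (SE 0.37, limma adjusted p = 0.577), so it was not called.

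Among 9 measured genes of V(D)J recombination and end joining, the reaction that Hmgb1 and Hmgb2 assist, 4 were lower and 1 was higher in V2 cells in each genotype, with medians of -1.07 in cKO and -0.86 in WT. Rag1 was lower, with differences of -6.10 (SE 0.17) in cKO and -5.97 (SE 0.18) in WT, as was Rag2, with -5.79 (SE 0.23) and -6.15 (SE 0.25). Dntt, the terminal transferase gene, was lower, with differences of -2.55 (SE 0.34) and -1.96 (SE 0.36), as was Xrcc6, the Ku70 gene, with -2.03 (SE 0.23) and -1.43 (SE 0.24). Rag1, Rag2 and Dntt are also DP markers here. The gene called higher was Xrcc5, with differences of 0.76 (SE 0.19) in cKO and 0.85 (SE 0.20) in WT. Of 6 genes of the SET complex, which contains Hmgb2, Apex1 was higher by 0.90 (SE 0.19) in cKO and 0.91 (SE 0.20) in WT and the other 5 were not called. Of 9 genes of extracellular HMGB1 signalling, Cxcr4 alone was called, lower in V2 cells with differences of -1.06 (SE 0.23) in cKO and -1.16 (SE 0.24) in WT.

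Among 13 partners and targets of Cic, 3 were higher in V2 cKO than in DP cKO and 1 was higher in V2 WT than in DP WT. Etv5, a Cic-repressed ETS factor gene and here also a V2 marker, was higher by 4.72 (SE 0.21) in cKO and 5.39 (SE 0.23) in WT. Dusp6 and Spred1, both negative regulators of MAPK signalling, were higher by 1.65 (SE 0.37) and 0.85 (SE 0.20) in cKO cells. Of 11 Hbp1 partners and targets, Mycn was higher (0.87, SE 0.23) and Cdkn1b lower (-0.90, SE 0.18) in V2 cKO cells, and Myc was higher in V2 WT cells (1.49, SE 0.20).

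Among the HMG box genes outside the members, 1 of 19 SOX genes was higher in V2 cKO and 3 of 19 in V2 WT. Sox13, here also a V2 marker, was higher by 2.15 (SE 0.26) in cKO and 3.36 (SE 0.28) in WT. Sox5 (1.31, SE 0.19) and Sox12 (0.79, SE 0.14) were higher in WT. Of 3 measured TCF/LEF genes, Tcf7l2 was higher in V2 cKO cells (0.74, SE 0.20). No call was made in either genotype among 12 HMG box genes of chromatin and mitochondria, 5 HMGA and HMGN genes, which lack an HMG box, 10 genes of the HBO1 acetyltransferase complex, a known partner of Tox, and 5 genes of the phosphatase complex that holds Tox4. In the cKO against WT comparisons of V2 and of DP cells, and in the interaction, 0 genes of any of these lists were called.

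The genes most like each member were taken by Pearson's r of log2 values over the 11 arrays, for the 7 members whose range was 1 or more. For Tox, Tox2, Hmgb1 and Hmgb2 these points share the split between V2 and DP cells, so r is a description. For Tox3, Tox4 and Hbp1 the V2 and DP arrays overlap. V2 cKO replicate 4 (V2imm) was lowest in Tox4, at 8.12 beside 8.70 to 9.59, and in Hbp1, at 9.05 beside 9.49 to 10.08. The weight of that array in their r was not tested. For Tox they were Gata3 (r = 0.986), Wipf1 (0.973) and Tspyl2 (0.972). For Tox2 they were the granzyme A gene Gzma (0.995), Etv5 (0.994) and the PD-1 gene Pdcd1 (0.988), and Pdcd1 averaged 10.82 in V2 cKO and 11.29 in V2 WT, against 7.32 in DP cKO and 7.10 in DP WT. For Tox3 they were Clic4 (0.928), Itga6 (0.914) and Sptbn4 (0.910), all higher in DP than in V2 cells by mean. The nearest genes were Tor1aip2, Wdr20 and Zfp954 for Tox4 (0.967 to 0.958), 4632427E13Rik, Galnt7 and Mia3 for Hmgb1 (0.974 to 0.953), H2bu1-ps, Hagh and Kiz for Hmgb2 (0.955 to 0.937), and Zranb2, Fancc and Desi2 for Hbp1 (0.939 to 0.922).

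In the 2 arrays shown apart, the members that separate the populations followed the markers and not the label. The array labelled DP cKO replicate 5 read 11.86 for Tox, 10.51 for Tox2 and 9.65 for Hmgb1, each within the V2 range, and 9.37 for Hmgb2, just below it. The array labelled V2 WT replicate 5 (immV2) read 10.26 for Tox, 7.54 for Tox2, 10.34 for Hmgb1 and 10.40 for Hmgb2, each within the DP range. Tox3 read 8.07 and 8.09 in these arrays, both within the DP range.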

How the data were processed

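RNA of sorted thymocytes was hybridised to Affymetrix arrays, per the labels' protocols. The authors deposited linear intensities. The submitters' processing notes name RMA and Affymetrix Power Tools, without versions. Values of 6.16 to 23799.6 show a linear scale, and log2 was taken here. Of 24922 probe sets, 21425 had 1 gene symbol, 1399 several and 2098 were not listed. The brightest probe set on average stood for each gene, which left 19752 genes. Arrays carry no depth, and their number limits the precision.

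Groups came from the titles. Over 11 arrays, limma 3.58.1 (R 4.3.3; lmFit, then eBayes with trend) fitted 4 group means plus a term for the 2 ways of writing V2 titles. No source says whether these titles mark a batch, and values within each are given. Comparisons were V2 against DP in each genotype, cKO against WT in each population, and the interaction, two-sided, with Benjamini-Hochberg adjustment over all genes and a threshold of 0.05. Alternatives were other scalings, filters, moderation, probe set rules, blocks, weights, left-out arrays and the 13 arrays as labelled. The fit was run on simulated data with independent normal noise for each gene and no shifts shared by the genes of an array. Such data cannot show how often the calls made here are false.

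The members, lists and the choice of 11 arrays were made with earlier results of these data known. The genes named are the 10 members, Sox4, the population markers and up to 4 called genes with the smallest p per list and comparison. Also named are Xrcc5 and the 3 genes with the highest r for each member that ranged over 1 or more. Replicate numbers were not taken as pairs. The correlations of deviations from the group mean of same-numbered V2imm, DP and immV2 arrays were 0.273, -0.108, 0.179 and 0.524. These V2 deviations include the difference between title sets, and arrays of unlike number were not compared. The correlations therefore cannot show whether the arrays are paired. Promoter windows are RefSeq's (GRCm38.p6). Python 3.11.15 and matplotlib 3.10.9 drew the figures.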

Additional observations from a re-analysis of the deposited data

Results flagged for a closer look

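Tox2 stood out in 3 ways. Among the V2 cKO arrays, replicate 5 (V2imm) was far from the others, at a log2 intensity of 10.42 beside 10.06 to 10.10. Among the arrays labelled V2 WT, replicate 5 (immV2) was far below the others, at 7.54 beside 10.47 to 10.61, and this is an array whose markers are those of DP cells. The cKO minus WT difference of Tox2 ran in opposite directions without overlap of the arrays, lower in V2 (-0.36) and higher in DP (0.27), and the test of the difference gave -0.63 (SE 0.25, limma adjusted p = 1).

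In Tox3, V2 cKO replicate 5 (V2imm) was low among the V2 cKO arrays, at 6.72 beside 6.89 to 6.92. In Tox4, V2 cKO replicate 4 (V2imm) was low among them, at 8.12 beside 9.28 to 9.35. The same array was the lowest in Hbp1 (9.05) and in Cic (8.22). It also had the lowest upper quartile of all arrays (332.7 intensity units), and the part of this in its low values was not tested. A single array is marked in this way by chance in about 5% of groups, and 10 genes were examined.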

How the results depend on the processing

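Of 28 other settings (17 of processing and 11 that leave out 1 array), interaction and population comparisons have 27 each. The count of members called between V2 WT and DP WT, 3 as reported, was 0 with the 13 arrays as labelled, 1 with immV2 arrays alone for V2, 5 with quantile normalisation, 5 among genes above the lower quartile, 5 with array weights, and 2 to 5 when 1 array was left out. Between V2 cKO and DP cKO, 4 as reported, it was 0 with the 13 arrays, 2 with immV2 arrays alone, and 2 to 4 when 1 array was left out. Tox2 was called in all 26 fits of 11 or fewer arrays in both genotypes, and Tox in 26 in cKO and 25 in WT, and no called value changed direction. Between V2 cKO and V2 WT the count was 0 except with array weights (5: Tox, Tox2, Tox3, Hmgb3 and Hbp1). That weight fit stopped before convergence and put a weight of 36.3 on V2 WT replicate 3 (immV2), the lone immV2 WT array, against 0.129 to 1.79 on the others. Between DP cKO and DP WT, and in the interaction, it was 0 throughout.

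With a replicate block on the number, 4 members were called in each population comparison (Hmgb1 added in WT) and 0 in both knockout comparisons, and with a replicate block within title sets 0 in both. Whether same-numbered arrays are pairs is not known, so the block stands only for a shared number. Over all genes, calls between V2 WT and DP WT were 962 as reported and 477 to 2320 otherwise, or 11 with the 13 arrays. Between V2 cKO and DP cKO they were 1076, 480 to 2253, and 7. Between V2 cKO and V2 WT they were 0, and at most 44 apart from array weights (2680), the 44 without V2imm cKO replicate 5. Between DP cKO and DP WT they were 5, and 0 to 29. In the interaction they were 0, and at most 48. The cause of these shifts was not tested.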
